A study of Mus musculus with 6 samples.

Results

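Liver RNA was examined for 9 genes, of hepatic glucose handling but for Hcn3: G6pc, Slc37a4, Slc2a2, Pck1, Fbp1, Pcx, Pklr, Hcn3 and Gckr. They were chosen by symbol, all but Hcn3 for their place in the release, synthesis and breakdown of glucose, and are 9 of the 23284 genes counted. All 9 were found and all 9 passed the filter on low counts, which left 9180 tested genes. Hcn3 encodes a channel of the hyperpolarization-activated family and is no gene of glucose metabolism: it was taken in because its exons overlap those of Pklr on the other strand. Livers of 8-week-old C57BL6/J mice were compared, 3 libraries of wild type against 3 of Trim24 -/-, which lack the nuclear receptor cofactor TRIM24, and the labels name no treatment in either group. The series is titled for hepatic lipid build-up and liver cancer in mice without TRIM24. The labels do not say in which cells Trim24 was inactivated, beyond naming the mice Trim24 -/-, nor whether each library of a group is a different mouse. A p-value here therefore sets the difference between the groups against the spread among these libraries. How much of that spread is technical and how much lies between mice is not known. WT1, WT2 and WT3 stand for the wild type libraries and KO1, KO2 and KO3 for those of the knockout, with the labels' replicate numbers.

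The liver makes glucose from lactate, amino acids and glycerol in gluconeogenesis, and in fasting it releases this glucose together with that from glycogen. PCX, PCK1 and FBP1 catalyse steps that bypass the irreversible reactions of glycolysis, and the last step, glucose 6-phosphate to glucose, is made by G6PC inside the endoplasmic reticulum after SLC37A4 has carried the substrate in. SLC2A2 (GLUT2) lets glucose across the hepatocyte membrane, while after a meal liver pyruvate kinase, the product of Pklr, makes the pyruvate of glycolysis under insulin and the carbohydrate response factor ChREBP, and GCKR is a regulatory protein of hepatic glucose use.

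Counts in genes were low, from 1495583 to 2872421 reads per library, which was 4.22% to 6.69% of the counted reads. A gene with no read in a library could still be present at up to 3 counts, which is 1.04 CPM in KO3 and 2.10 CPM in WT1, where CPM are counts per 1000000 reads in tested genes scaled by the TMM factor. This limit covers counting error only. The lowest count of any of the 9 genes was 21, for Hcn3 in KO2. Trim24 was counted 31, 45 and 44 times in WT1 to WT3 and 3, 2 and 2 times in KO1 to KO3 (log2 fold change -4.46, SE 0.39, edgeR quasi-likelihood adjusted p = 2.1e-05).

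Of the 9 genes, 3 fell in the knockout at an adjusted p under 0.05, where 2.65% of all tested genes did: Slc37a4, Slc2a2 and Hcn3. None rose (0 of 9, against 3.08% of all tested genes). At an unadjusted p under 0.05, 5 of the 9 were lower, as were 9.97% of all tested genes, and 0 higher, and DESeq2, limma-voom and the edgeR exact test also called 0 higher. All 3 knockout libraries lay below all 3 wild type libraries for 4 of the 9 genes, Slc37a4, Slc2a2, Pcx and Hcn3, and this held for 12.6% of all tested genes. Each of these counts of lower genes includes Hcn3, which is no glucose gene and shares exons with Pklr. The 9 genes were chosen with earlier results of these data known, so the shares give scale and are no test. The fitted change was negative for all 9, although with scaling by total counts Fbp1 was at 0.06 and Gckr at 0.00. The median log2 fold change of the 9 was -0.63, beside a median of 0.01 and 49.2% negative over all tested genes. Slc37a4, Slc2a2 and the Pklr and Hcn3 pair carried the larger differences, and Pck1, Fbp1 and Gckr the smaller ones. G6pc (-0.63, and -0.24 without KO2) and Pcx (-0.46, and -0.43 without KO2) lay between them. In bulk liver, fewer cells of a type and less RNA per cell cannot be told apart.

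**Figure D1:**
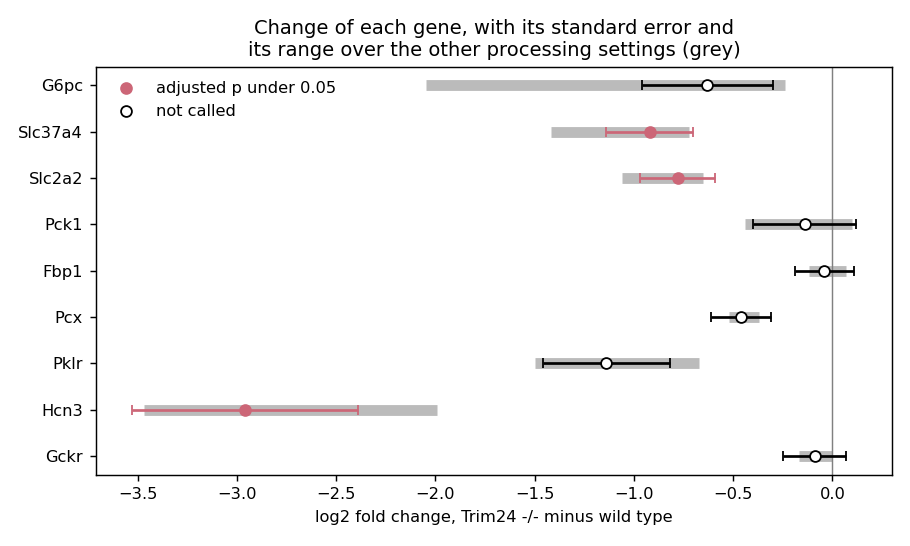
Fitted log2 fold change, knockout minus wild type, of each of the 9 genes on the x axis, with thin bars for 1 SE on each side, grey bars for the range over the other processing settings, and filled points for the 3 called genes. Every point lies left of 0, from -0.04 for Fbp1 to -2.96 for Hcn3, but the grey bars of Fbp1 (to 0.07), Pck1 (to 0.10) and Gckr (to 0.00) reach 0 or pass it.

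RefSeq holds a promoter window for 8 of the 9 genes on GRCm38.p6. The bases upstream of the start that lie in no annotated exon are shown, 5′ to 3′ on the gene's strand, for 4 genes that differ in the data: Slc37a4 and Slc2a2, which fell, Pklr, which varied most among the wild type libraries of the 8 glucose genes (coefficient of variation 56.2%), and Pck1, whose groups overlapped. Capitals mark a match to a searched motif. The windows are Slc37a4 at chr9:44396696-44396851 (the first of 3 starts), Slc2a2 at chr3:28697653-28697902, Pklr at chr3:89136373-89136571 (the second of 2 starts, which lies inside the gene) and Pck1 at chr2:173152823-173153047, all on the plus strand.
Slc37a4: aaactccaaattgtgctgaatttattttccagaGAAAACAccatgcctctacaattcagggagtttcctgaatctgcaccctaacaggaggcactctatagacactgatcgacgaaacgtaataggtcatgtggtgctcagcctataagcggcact
Slc2a2: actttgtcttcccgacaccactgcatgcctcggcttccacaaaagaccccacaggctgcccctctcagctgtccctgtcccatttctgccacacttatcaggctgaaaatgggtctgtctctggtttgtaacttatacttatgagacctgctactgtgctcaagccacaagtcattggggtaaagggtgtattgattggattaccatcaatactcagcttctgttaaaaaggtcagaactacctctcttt
Pklr: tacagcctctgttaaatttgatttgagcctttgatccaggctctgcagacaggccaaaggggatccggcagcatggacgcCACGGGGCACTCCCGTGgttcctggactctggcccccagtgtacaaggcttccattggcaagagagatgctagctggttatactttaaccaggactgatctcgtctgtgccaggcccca
Pck1: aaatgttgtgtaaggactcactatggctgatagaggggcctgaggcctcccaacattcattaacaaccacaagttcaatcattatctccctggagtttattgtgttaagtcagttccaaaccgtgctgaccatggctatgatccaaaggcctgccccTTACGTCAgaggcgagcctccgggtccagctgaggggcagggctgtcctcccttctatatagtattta

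Motifs were searched on both strands in the 250 bases upstream of each start, and shares are of 32851 RefSeq mouse promoters of the same length. The Pck1 window held TTACGTCA with its first base 93 bases before the start, a variant of the cyclic AMP response element that 0.447% of promoters held. In the Slc37a4 window shown, GAAAACA at 217 bases before the start matches the forkhead motif TGTTTNC on the other strand, which is common (17.8% of promoters). The Pklr window held CACGGG and, after 5 bases, CCCGTG, starting 170 bases before the start, the layout of a carbohydrate response element. That pair was found in 1 of the 32851 promoters, 0.00304%, and was written with the Pklr sequence already known, so the share describes the letters and is no search result. Slc2a2 and the other Pklr start held none of the motifs searched. These were CACGTG (6.02% of promoters), TGACGTCA (1.55%), TTACGTCA, TTACGTAA (0.113%), TGTTTNC, GTTAATNAT (0.737%) and the pair. TGACGTCA was found upstream of none of the 8 genes. Elsewhere among the 8 genes, G6pc held TTACGTAA, TGTTTGC and GTTAATAAT at 162, 141 and 221 bases before its start, Gckr held GTTAATCAT at 59, Pcx held CACGTG at 248, and Slc37a4 held TGTTTTC at 106 bases before the last of its 3 starts. A match describes letters and shows no binding.

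Of the 3 genes of glucose release, the transporter genes Slc37a4 and Slc2a2 fell and G6pc did not pass the test. SLC37A4 carries glucose 6-phosphate into the endoplasmic reticulum, and its loss in people causes a glycogen storage disease. Its gene lies on chromosome 9, 44396852 to 44402968 on GRCm38. Slc37a4 was measured at 187, 253 and 271 CPM in WT1 to WT3 and at 167, 88.5 and 120 CPM in KO1 to KO3. The groups did not overlap, although KO1 came close to WT1. The means were 237 ± 44.4 and 125 ± 39.6 CPM (SD, n = 3 per group), with a log2 fold change of -0.92 (SE 0.22, adjusted p = 0.026). The call was lost when WT2, WT3, KO2 or KO3 was left out, with adjusted p of 0.089, 0.12, 0.097 and 0.071.

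Slc2a2, on chromosome 3 from 28697903 to 28731359, encodes the high-capacity glucose carrier of the hepatocyte membrane. It was measured at 383, 338 and 457 CPM in WT1 to WT3 and at 297, 188 and 202 CPM in KO1 to KO3. KO1 was again the highest of the knockout libraries, and every knockout library was below every wild type one. Slc2a2 fell from 393 ± 59.9 to 229 ± 58.9 CPM (SD, n = 3 per group), with a log2 fold change of -0.78 (SE 0.19, adjusted p = 0.032). Without WT1, WT3, KO2 or KO3 the adjusted p was 0.083, 0.15, 0.12 and 0.097, so that the call rested on having all of these libraries.

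G6pc, on chromosome 11 from 101367561 to 101377903, encodes the catalytic subunit of glucose 6-phosphatase and was measured at 400, 534 and 500 CPM in WT1 to WT3. The knockout libraries KO1, KO2 and KO3 gave 401, 116 and 406 CPM of G6pc. One library, KO2, set the group apart: it stood at 24.2% of the wild type mean, while KO1 and KO3 stood at 83.8% and 85.0% and overlapped WT1. The means were 478 ± 69.4 and 308 ± 166 CPM (SD, n = 3 each), and the log2 fold change of -0.63 (SE 0.33, adjusted p = 0.31) did not pass the test. Without KO2 it was -0.24. For KO2 alone against wild type it was -2.05, given as a description since KO2 stands out by this same gene, and Slc37a4 was then at -1.42 and Slc2a2 at -1.06. KO2 was also the lowest of the 6 libraries for Slc37a4, Slc2a2, Pcx and Hcn3. Its summed level of 12 hepatocyte markers was 95589 CPM, the lowest of all, against 121478 and 124425 CPM in KO1 and KO3, and the part of this in its G6pc level was not tested.

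**Figure D2:**
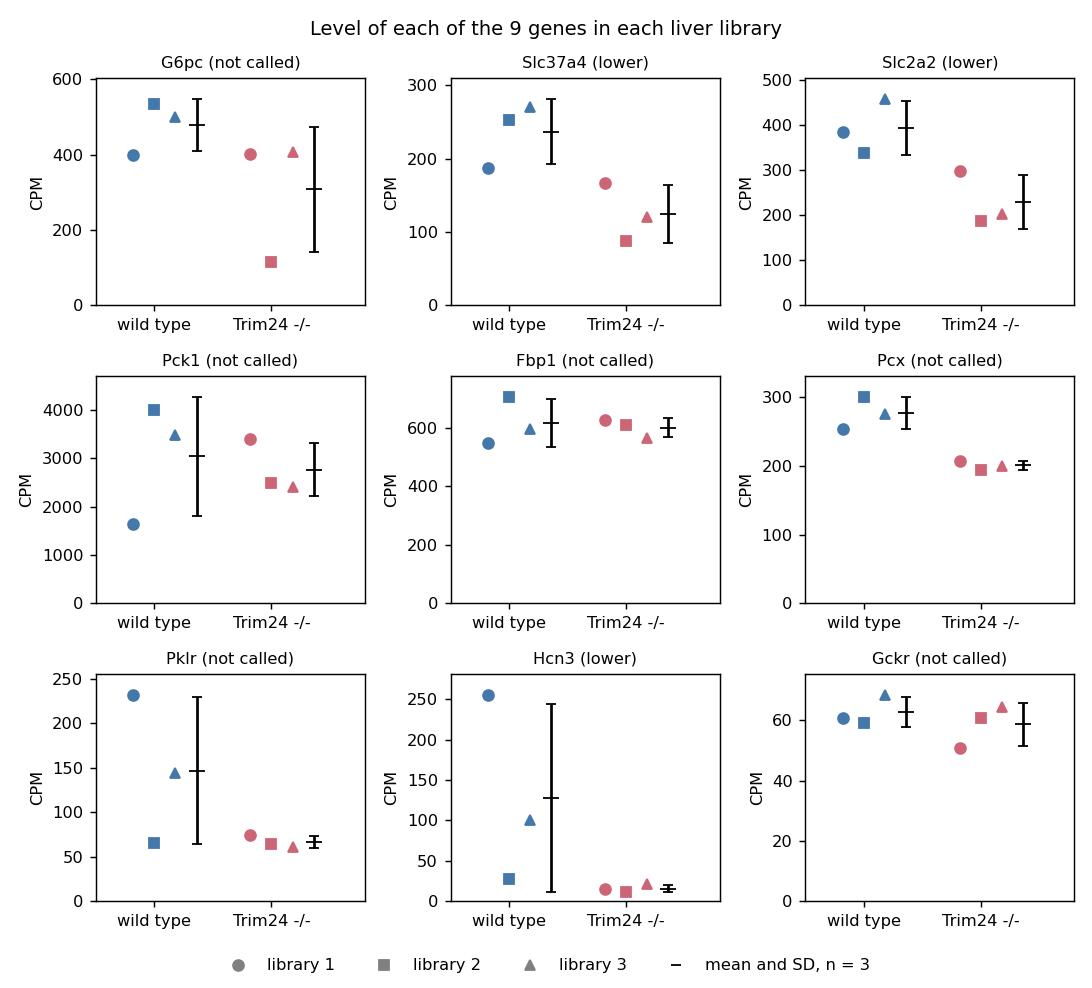
CPM of each of the 9 genes on the y axis, from 0, in the 3 wild type and 3 Trim24 -/- libraries, with a symbol for each library number and black bars for the mean and SD. The KO2 square of G6pc sits at 116 CPM, far from the other knockout libraries, and the Pklr and Hcn3 points spread more widely in wild type than in the knockout.

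Of the enzymes of gluconeogenesis proper, Pcx had a larger fitted change than Pck1 and Fbp1. Pcx, pyruvate carboxylase, makes oxaloacetate from pyruvate in the mitochondrion and is encoded on chromosome 19 from 4510472 to 4621752. Pcx was measured at 254, 300 and 276 CPM in WT1 to WT3 and at 207, 194 and 200 CPM in KO1 to KO3. The knockout libraries were close to each other and all lay below wild type. The means of 277 ± 23.0 and 201 ± 6.58 CPM (SD, n = 3 each) gave a log2 fold change of -0.46 (SE 0.15), and with an adjusted p of 0.081 Pcx did not pass the test.

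Pck1, on chromosome 2 from 173153048 to 173159273, encodes the cytosolic phosphoenolpyruvate carboxykinase, whose transcription follows glucagon and insulin. Pck1 was the most abundant of the 9 genes, with 1648, 3984 and 3467 CPM in WT1 to WT3 and 3396, 2493 and 2394 CPM in KO1 to KO3. The groups overlapped, and the lowest library was WT1. Pck1 had means of 3033 ± 1227 and 2761 ± 552 CPM (SD, n = 3 per group), with a log2 fold change of -0.14 (SE 0.26, adjusted p = 0.83) whose sign turned to 0.10 without WT2. Fbp1, the fructose 1,6-bisphosphatase on chromosome 13 from 62864753 to 62888282, was measured at 546, 704 and 594 CPM in WT1 to WT3 and at 625, 610 and 565 CPM in KO1 to KO3. Its knockout values lay inside the wild type range. With means of 615 ± 80.7 and 600 ± 31.0 CPM (SD, n = 3 each), the log2 fold change of Fbp1 was -0.04 (SE 0.15, adjusted p = 0.93) and turned to 0.06 when libraries were scaled by total counts. No difference in Pck1 or Fbp1 was detectable at this depth and spread.

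Pklr differed strongly among the wild type libraries. The gene, on the plus strand of chromosome 3 from 89136142 to 89146784, encodes the pyruvate kinase of liver and red cells, and its second start is the one that liver is known to use. Pklr was measured at 232, 66.1 and 144 CPM in WT1 to WT3 and at 74.9, 64.0 and 61.6 CPM in KO1 to KO3. WT2 lay among the knockout libraries, which were close to each other, while WT1 and WT3 were higher. The means of 147 ± 82.9 and 66.8 ± 7.10 CPM (SD, n = 3 each) gave a log2 fold change of -1.14 (SE 0.32), and the adjusted p of 0.052 missed the threshold. The call moved with the tool and the libraries: adjusted p was 0.013 with the edgeR exact test, 0.0028 without WT2 and 0.26 with DESeq2. Without WT1 the log2 fold change was -0.67.

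Hcn3 is transcribed from the minus strand of chromosome 3, 89146074 to 89160196, and its exons share 711 bases with those of Pklr, which is 22.0% of Pklr's exonic bases and 17.1% of Hcn3's. Whether the counting used strand is not stated in the labels or notes, and without strand the reads of the overlap cannot be assigned to 1 of the genes. Hcn3 was measured at 255, 27.8 and 101 CPM in WT1 to WT3 and at 15.5, 11.4 and 20.9 CPM in KO1 to KO3. WT1 was more than any other library and WT2 was near the knockout ones. The wild type libraries ran in the same order as for Pklr, but the knockout libraries did not. Hcn3 fell from 128 ± 116 to 15.9 ± 4.75 CPM (SD, n = 3 per group), with a log2 fold change of -2.96 (SE 0.57, adjusted p = 0.0082). Without WT1 it was -1.99 (adjusted p = 0.033), and with limma-voom the adjusted p was 0.057.

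Hcn3 and Pklr were also summed. Reads that the counter set aside as ambiguous are in neither gene, so the sum does not hold them. The sum was 487, 93.9 and 245 CPM in WT1 to WT3 and 90.4, 75.4 and 82.5 CPM in KO1 to KO3. WT2 was above the highest knockout library by little. The summed level fell from 275 ± 198 to 82.8 ± 7.49 CPM (SD, n = 3 per group), with a log2 fold change of -1.73 (SE 0.40, adjusted p = 0.022). Hcn3 made up 52.4% of the summed reads in WT1 (Wilson 95% interval 48.7 to 56.1), 29.6% in WT2 (22.7 to 37.5) and 41.2% in WT3 (36.5 to 46.0). In KO1, KO2 and KO3 its share was 17.1% (11.9 to 24.1), 15.1% (10.1 to 22.0) and 25.3% (20.2 to 31.2). All wild type shares were above all knockout shares, although the interval of WT2 overlapped those of KO1 and KO3, and WT1 had both the highest share and the highest sum. The intervals cover counting error only.

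**Figure D3:**
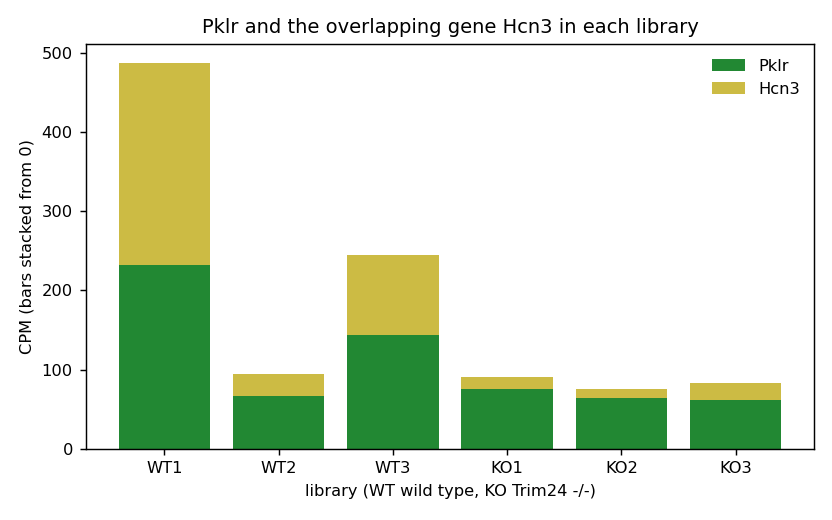
CPM of Pklr and Hcn3, stacked from 0 on the y axis, in each of the 6 libraries on the x axis. WT1 reaches 487 CPM and WT3 245 CPM, while WT2 at 93.9 CPM stands beside the knockout libraries at 75.4 to 90.4 CPM.

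The gene of the regulatory protein GCKR, on chromosome 5 from 31297443 to 31327314, had the lowest mean of the 9 per length in wild type. Gckr was measured at 60.8, 58.9 and 68.3 CPM in WT1 to WT3 and at 50.8, 60.8 and 64.4 CPM in KO1 to KO3. The groups overlapped, with means of 62.6 ± 4.99 and 58.6 ± 7.04 CPM (SD, n = 3 each) and a log2 fold change of -0.09 (SE 0.16, adjusted p = 0.81).

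Levels of different genes can be compared only per length, here as CPM per kilobase of GENCODE M21 exons. In wild type the order was Pck1 with 884 ± 358, Fbp1 with 361 ± 47.4, G6pc with 198 ± 28.7, Slc37a4 with 82.8 ± 15.5, Slc2a2 with 68.2 ± 10.4, Pcx with 58.2 ± 4.84, Pklr with 45.6 ± 25.6, Hcn3 with 30.8 ± 27.9 and Gckr with 14.4 ± 1.15 CPM per kilobase (SD, n = 3). From Slc37a4 down, each gene's wild type libraries overlapped those of the next one, and Pck1, Fbp1 and G6pc did not overlap their neighbours. In the knockout the order was Pck1 with 805 ± 161, Fbp1 with 353 ± 18.2, G6pc with 127 ± 68.9, Slc37a4 with 43.9 ± 13.9, Pcx with 42.2 ± 1.38, Slc2a2 with 39.8 ± 10.2, Pklr with 20.7 ± 2.20, Gckr with 13.5 ± 1.62 and Hcn3 with 3.83 ± 1.14 CPM per kilobase (SD, n = 3). There, G6pc overlapped Slc37a4 through KO2, Slc37a4, Pcx and Slc2a2 overlapped each other, and Pklr, Gckr and Hcn3 were apart. By its mean, Hcn3 thus moved below Gckr, although in WT2 Hcn3 (6.69 CPM per kilobase) was already below Gckr (13.6).

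Across the 6 libraries, as a description with no test, log2 CPM of Slc37a4 correlated with that of Slc2a2 at r = 0.93, of Pcx at 0.91 and of G6pc at 0.84, and Pck1 with Fbp1 at 0.83. Pklr and Hcn3, which share exonic bases, correlated at 0.96, and Pck1 and Pklr at -0.50. The points share library depth and the 2 genotypes. Among all other tested genes, the closest to G6pc in pattern were Adck1 (Pearson r = 0.995), Bach2 (0.995) and Hsd17b11 (0.994), and 158 genes were above 0.9. Closest to Pklr were Bad (0.990), Foxa1 (0.985) and Arf5 (0.983), with 77 genes above 0.9. None of these 6 passed the test between genotypes. They were picked as the highest r of all tested genes over 6 libraries. Some had low counts, such as 7 for Adck1 in KO2 and 13 for Bad in WT2. Exons of Adck1, Bach2, Bad and Arf5 overlap those of a gene on the other strand.

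The other genes of the pathways were counted from 9 lists, which hold between 7 and 32 tested genes. For scale beside the list medians, the 12 hepatocyte markers described below had a median log2 fold change of -0.32, with 11 negative. In the list of gluconeogenesis and glucose 6-phosphatase, 14 genes were tested, 5 of them among the 9 described, and 1 fell, Slc37a4, with 0 rises. All 14 fitted changes were negative, with a median log2 fold change of -0.40 beside 0.01 over all tested genes, and the knockout libraries lay below wild type for 5. Of the others, Got1 (aspartate aminotransferase) was at 849 ± 299 and 507 ± 87.2 CPM (SD, n = 3 each, adjusted p = 0.081). The adjusted p of Got1 was 0.019 without WT1 and 0.026 with DESeq2, but 0.31 without WT2. Mdh1 (malate dehydrogenase) was at 686 ± 86.3 and 525 ± 42.5 CPM (SD, n = 3 each, adjusted p = 0.17).

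Glycolysis and its regulators held 20 tested genes, of which 1 rose and 0 fell, with a median of -0.24 and 15 negative. The riser was Pkm2, the muscle-type pyruvate kinase gene, at 8.38, 13.9 and 7.72 CPM in WT1 to WT3 and 16.1, 28.8 and 33.4 CPM in KO1 to KO3 (log2 fold change 1.41, adjusted p = 0.022), the opposite direction to Pklr. Leaving out WT1, WT3, KO2 or KO3 ended its call (adjusted p 0.066 to 0.11). In GENCODE M21, 15.3% of Pkm2's exonic bases overlap Gm49759 on the same strand. Hexose and lactate transport held 11 tested genes, of which Slc2a2 and Slc37a4 fell and Slc37a1, a phosphate-linked glucose 6-phosphate antiporter, rose. The list's median was -0.03. Of the exonic bases of Slc37a1, 8.31% overlap AC154652.2 on the other strand. Slc37a1 was low, at 2.56 ± 1.02 and 8.62 ± 2.44 CPM (SD, n = 3 each; log2 fold change 1.70, adjusted p = 0.038), and its call was lost with DESeq2 (adjusted p = 0.18), with limma-voom (0.072) and when any library other than KO1 was left out (0.071 to 0.15).

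Pyruvate entry and dehydrogenase held 16 tested genes, of which 3 fell and 0 rose, with a median of -0.41 and 15 negative. The 3 were Pdk1, a kinase that inhibits pyruvate dehydrogenase, Pdha1, a subunit of that enzyme, and Slc25a1, the mitochondrial citrate carrier. Pdk1 fell from 151 ± 16.4 to 65.0 ± 16.4 CPM (SD, n = 3 each; log2 fold change -1.22, SE 0.19, adjusted p = 0.0017). Pdha1 fell from 190 ± 11.4 to 117 ± 1.96 CPM (adjusted p = 0.012, and 0.051 without WT3), and 16.1% of its exonic bases overlap Map3k15 on the other strand. Slc25a1 fell from 182 ± 16.5 to 118 ± 19.9 CPM (adjusted p = 0.043), a call that was lost when any library other than KO1 was left out (0.075 to 0.18), with upper quartile factors (0.052) and with total counts (0.070).

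Carbohydrate response targets, genes known to follow ChREBP, held 17 tested genes, 3 of them among the 9, and 4 fell with 0 rises: Slc2a2, Acacb, Scd1 and Me1. The median was -0.53 and 15 were negative. Scd1, the stearoyl-CoA desaturase, fell from 5624 ± 829 to 1713 ± 529 CPM (SD, n = 3 each; log2 fold change -1.71, adjusted p = 0.00041). Me1 (malic enzyme) and Acacb (acetyl-CoA carboxylase) fell with log2 fold changes of -1.32 and -1.17 (adjusted p 0.00056 and 0.0047). Scd1, Me1 and Acacb act in fatty acid metabolism, and G6pc and Pklr of the same list did not pass the test.

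Fructose and galactose entry held 8 tested genes and the pentose phosphate pathway 7, with 0 calls in each and medians of -0.28 and -0.21. Sord, sorbitol dehydrogenase, was at 810 ± 82.9 and 690 ± 284 CPM (SD, n = 3 each, adjusted p = 0.63). The adjusted p of Sord was 0.040 without KO1 and 0.95 without KO2. In the pentose phosphate list, H6pd was at 424 ± 51.3 and 367 ± 41.2 CPM (adjusted p = 0.51) and Taldo1 at 62.8 ± 3.72 and 62.9 ± 10.8 CPM (adjusted p = 0.98).

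Of 32 tested transcription factors and coactivators of glucose genes, 1 fell and 0 rose, with a median of -0.22 and 23 negative. It was Cebpa, a regulator of liver metabolic genes, from 170 ± 15.9 to 114 ± 12.6 CPM (SD, n = 3 each; log2 fold change -0.58, adjusted p = 0.044), a call lost when any library other than KO1 was left out (0.069 to 0.17), with upper quartile factors (0.052) and with total counts (0.080). Among 19 genes of insulin and glucagon receptors and signalling, with a median of 0.01, Insr fell and Ptpn1 rose. Insr, the insulin receptor, went from 201 ± 35.4 to 128 ± 18.7 CPM (SD, n = 3 each; adjusted p = 0.045), and Ptpn1, a phosphatase that acts on it, from 13.6 ± 3.03 to 27.9 ± 4.90 CPM (adjusted p = 0.027). The Insr call was lost when any library other than KO1 was left out (0.063 to 0.18) and with total counts (0.076), and that of Ptpn1 without WT1, WT3, KO2 or KO3 (0.077 to 0.10) and with DESeq2 (0.085).

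**Figure D4:**
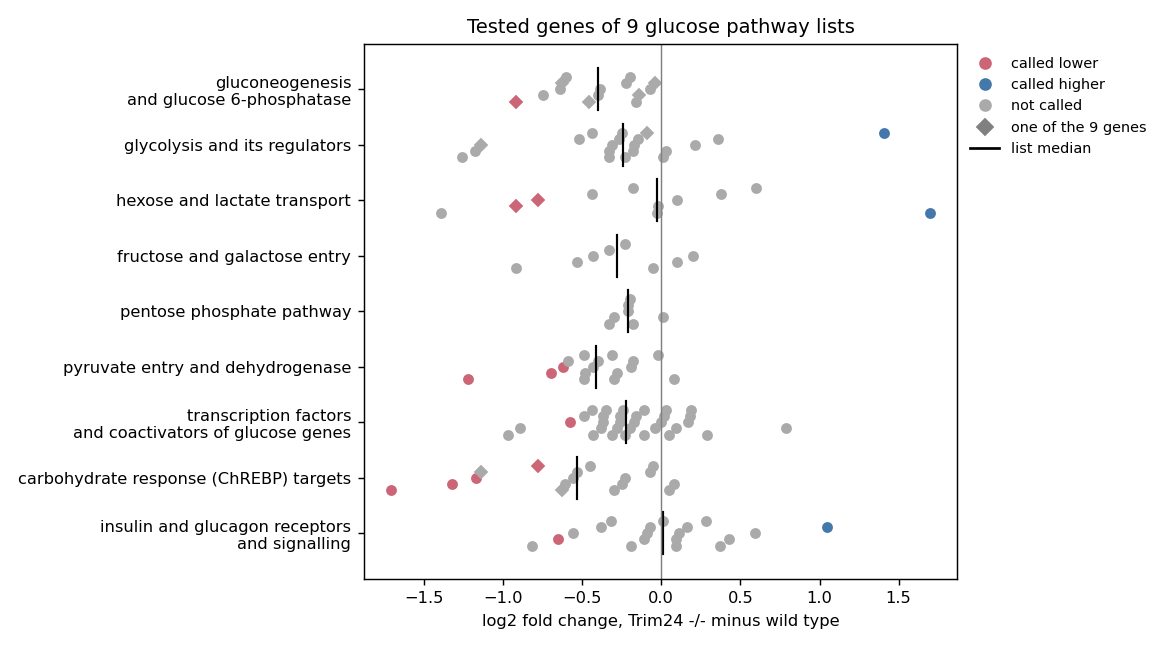
Fitted log2 fold change, knockout minus wild type, of every tested gene on the x axis, by pathway list, with a black line for the list's median, diamonds for the 9 genes and colour for called genes. Medians run from -0.53 for carbohydrate response targets to 0.01 for insulin and glucagon signalling, and each list has most of its genes uncalled.

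Levels of cell type markers moved between the groups as well. The 12 hepatocyte markers summed to 133530 to 143573 CPM in wild type and to 95589 to 124425 CPM in the knockout, with a median log2 fold change of -0.32, 11 negative and 1 called lower (Tdo2, -0.63). Of the 9 genes, Hcn3 included, 6 had a fitted change below that median. Markers of Kupffer cells summed to 241 to 440 CPM in wild type and 398 to 740 CPM in the knockout (3 of 13 tested rose), and those of stellate cells to 516 to 570 and 683 to 809 CPM (2 of 9 rose). Endothelial markers summed to 529 to 557 and 408 to 529 CPM (1 rose and 2 fell of 10). Red cell markers, of the other cells known to express Pklr, summed to 178 to 220 and 160 to 222 CPM, with Hba-a1 and Hba-a2 at 0. Lymphocyte and neutrophil markers summed to 7.13 to 9.92 and 14.2 to 21.2 CPM (1 of 1 tested rose), muscle and adipose markers to 0 to 30.7 and 0 to 5.57 CPM, and cholangiocyte markers to 34.4 to 47.5 and 41.5 to 60.8 CPM. Pancreatic acinar markers, of which Amy2a5 and Try10 were at 0, summed to 11.9 to 39.1 CPM in wild type and to 1055, 14.7 and 677 CPM in KO1, KO2 and KO3 (1 of 1 tested rose). Endocrine pancreas markers, of whose cells beta cells also express Slc2a2, summed to 2.38 to 16.1 CPM in wild type and 2.48 to 13.9 CPM in the knockout, with Ins1, Ins2, Gcg, Ppy, Pdx1 and Chga at 0 in all libraries. The part of these levels in the differences of the 9 genes was not tested.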

How the data were processed

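Per the labels' protocols, TRIzol-extracted total liver RNA was made into Illumina libraries. The deposited values are raw, unnormalized counts of reads for every gene symbol, 1 file a library. Per the submitters' processing notes, mm9, HTSeq, TopHat 1.4.1 and edgeR were used, with no roles given, and the strand setting is not stated there or in the labels. Each file held 23284 genes and 5 totals. Reads in no gene (93.3% to 95.8%) and ambiguous reads (0.0130% to 0.0213%) stayed out of library sizes and tests. Libraries were grouped by genotype in the labels.

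The test was the quasi-likelihood F test of edgeR 4.0.16 under R 4.3.3 (TMM factors, filterByExpr with a minimum count of 10, group as the only term), with Benjamini-Hochberg adjustment over 9180 genes and a threshold of 0.05. A negative log2 fold change means a lower level in the knockout, and its SE was computed as the change divided by the root of F. Exon lengths, overlaps and positions came from GENCODE M21 on GRCm38 (22825 symbols, 98.0%, matched), a later build than mm9, and promoters from RefSeq on GRCm38.p6. Log2 CPM for correlations used a prior count of 2.

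The members, lists and tests were chosen with earlier results of these data known. Named were all 9 members, Trim24, up to 4 called non-members per list (the 2 most abundant where none was called), the 3 genes closest in pattern to G6pc and to Pklr, and genes overlapping a member. A gene that falls under it is not reported here. Alternatives covered scaling, filter, threshold, DESeq2 1.42.0, limma 3.58.1 voom, the edgeR exact test, a replicate block, each library left out, KO2 as the only knockout library, and Pklr and Hcn3 summed. The test was tested on simulated counts for this comparison with 8958 genes: it recovered 19.1%, 51.7% and 97.1% of genes changed 1.5-, 2- and 4-fold, and 16 of its 125 calls (12.8%) were false.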

Additional observations from a re-analysis of the deposited data

How the results depend on the processing

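All 9 changes stayed negative under every alternative run, except that Fbp1 was 0.06 and Gckr 0.00 with total counts, Fbp1 ranged from -0.12 to 0.07 and Pck1 from -0.44 to 0.10 with a library left out. Taldo1 was -0.01 with DESeq2 and with a filter of 1 count, -0.26 with KO2 as the only knockout library, and -0.14 to 0.13 with a library left out. A filter of 1 count in any library gave 576 genes higher and 509 lower and 5 of the 9 members lower, adding G6pc and Pklr. In that fit the SE was 0.18 for G6pc, Pklr, Pck1 and Fbp1 alike. In the main fit it was 0.33, 0.32, 0.26 and 0.15, so the calls added by the 1-count filter take little account of a gene's own spread. An adjusted p under 0.1 gave 445 and 437, and 5 members lower, adding Pcx and Pklr. Scaling by total counts, which moved the median of all genes to 0.10, gave 373 higher and 172 lower against 283 and 243. With a library left out, 127 to 409 genes were higher and 95 to 363 lower, and 1 to 3 members were lower and 0 higher. The cause of these moves was not tested.

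Calls in the lists moved as follows. Gluconeogenesis, with 1 call, had 3 with DESeq2, 2 with the exact test, 5 with the 1-count filter, 2 with KO2 alone, 4 at 0.1 and 0 to 3 with a library left out. Glycolysis, with 1, had 3 with the exact test, 4 with the 1-count filter, 2 with a filter of 1 CPM, 3 at 0.1 and 0 to 3 with a library left out. Transport had 0 to 5, pyruvate entry 1 to 5 and carbohydrate response targets 3 to 5 with a library left out, and the targets 9 with the 1-count filter. Fructose and galactose entry, with 0, had 1 with the exact test, the 1-count filter and KO2 alone, 2 at 0.1 and 0 to 1 with a library left out. Transcription factors, with 1, had 0 with upper quartile factors, total counts and KO2 alone, 3 with the 1-count filter and 0 to 2 with a library left out. Insulin and glucagon signalling, with 2, had 1 with total counts, DESeq2 and KO2 alone, and 0 to 2 with a library left out.

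The labels do not say whether replicate numbers pair the libraries. Deviations of same-numbered libraries correlated at -0.0731, 0.0789 and 0.0349. WT2 and WT3 correlated best with their own number, while WT1 correlated best with KO3 (0.0885). With 3 libraries per group, these values cannot tell whether the numbers pair the libraries. With the replicate number as a block, 295 genes were higher and 250 lower, 4 members were lower (Pklr with -1.01, adjusted p = 0.032, in addition), and glycolysis had 3 calls. Depth limits the lowest genes: 3 counts were 2.10 CPM in WT1.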

Other observations

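Pck1 and Ppargc1a ran in another order among the wild type libraries than Pklr and Thrsp, 4 genes picked after their values were seen and given as values only. WT2 held the highest Pck1 (3984 CPM) and Ppargc1a (27.8 CPM, a coactivator of gluconeogenic genes) and the lowest wild type level of Pklr (66.1 CPM) and Thrsp (171 CPM, a lipogenic gene). WT1 held the lowest Pck1 (1648 CPM), with 232 CPM of Pklr and 657 CPM of Thrsp. In WT3 Pck1 was at 3467 CPM, Pklr at 144 CPM and Thrsp at 736 CPM. Other glycolysis genes did not all share the order of Pklr: Ldha was at 263, 402 and 305 CPM and Pfkl at 22.4, 28.4 and 26.7 CPM in WT1, WT2 and WT3.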
